A study of Mus musculus with 2 samples.

Results

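The 48 genes described here drive or mark the cell division cycle. They were chosen by name, as 16 genes of the G1 phase, 14 of the S phase and 18 of the G2/M phases, and all 48 were found by name among 55536 annotated mouse genes. The libraries held polyadenylated RNA of inflammation-experienced regulatory T cells, which were primary cells of a male adult mouse aged 6 months. The mouse was of strain Foxp3CreERT2 x Rosa26YFP, and the labels trace the cells to a hematopoietic cell of the bone marrow. In such a strain the Foxp3 gene drives a tamoxifen-dependent Cre recombinase and the Rosa26 locus carries a yellow fluorescent reporter, so the marked cells are those that used Foxp3. There was 1 group with 1 biological replicate, read as 2 technical libraries of sheared fragments (100 to 300 bp), and no cells without inflammation were analysed here.

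In the G1 phase, D-type cyclins bind the kinases CDK4 and CDK6, and E-type cyclins bind CDK2. These kinases phosphorylate the pocket proteins RB1 and RBL2, which hold E2F transcription factors back, while the INK4 and CIP/KIP proteins inhibit the kinases. Freed E2F factors switch on genes for DNA replication. Later, CDK1 with cyclins A and B drives mitosis, whose genes are held silent in resting cells by the DREAM complex and switched on by B-MYB and FOXM1 through a promoter word called the cell cycle genes homology region (CHR). Regulatory T cells divide in response to antigen and interleukin-2, and transcripts of the late phases are abundant only in dividing cells.

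Technical replicates 1 and 2 held 15386113 and 13604480 gene counts. A gene with 0 counts could still lie at up to 0.195 and 0.221 CPM (counts per total gene counts, scaled), which is 3 counts. All 6 regulatory T cell markers were detected, that is, they reached 1 TPM (a level per transcript length) in both libraries, with Foxp3 at 22.05 and 17.90 TPM. None of 4 immature thymocyte markers was detected, Rag1 and Rag2 were at 0 counts, and 1 of 6 myeloid and 3 of 6 erythroid and megakaryocyte markers were detected, with the myeloid gene Mpo at 0. Of 6 B cell and plasma cell markers, Igkc and Jchain were detected. The libraries are of bulk RNA, so fewer cells of a type and less RNA per cell cannot be told apart.

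By their medians the levels ran from S-phase genes through G1 genes to G2/M genes. The S-phase genes had a median of 28.3 TPM (31.2 and 25.4 in technical replicates 1 and 2, SD 4.12), with all 14 detected. The G1 genes had a median of 17.1 TPM (15.9 and 18.6, SD 1.95), with 15 of 16 detected, and spanned 801-fold from E2f1 to Ccnd2. The G2/M genes had the lowest median, 5.00 TPM (5.48 and 3.87, SD 1.15), with 17 of 18 detected. Among detected protein-coding genes, whose median was 18.3 TPM, the median percentile of the S-phase, G1 and G2/M genes was 62.1, 48.0 and 18.6. The place of the G1 genes rested on their make-up: without the transcription factor genes E2f1 and E2f2, a choice made after seeing the data, their median was 29.98 TPM, above that of the S-phase genes. That order held in technical replicate 2 (32.5 TPM, beside 25.4 for S-phase genes) and not in technical replicate 1 (27.4, beside 31.2). Summed rather than taken at the median, G1 transcripts were highest, at 1254 and 1268 TPM, beside 499.9 and 474 TPM for S-phase and 176 and 144 TPM for G2/M transcripts. The distributions overlapped: 2 G1 genes lay above the highest S-phase gene, and 13 of 18 G2/M genes lay above the lowest S-phase gene, but only the microtubule regulator Stmn1 lay above the S-phase median. Genes of a group are not replicates, so no test was made between groups.

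**Figure D1:**
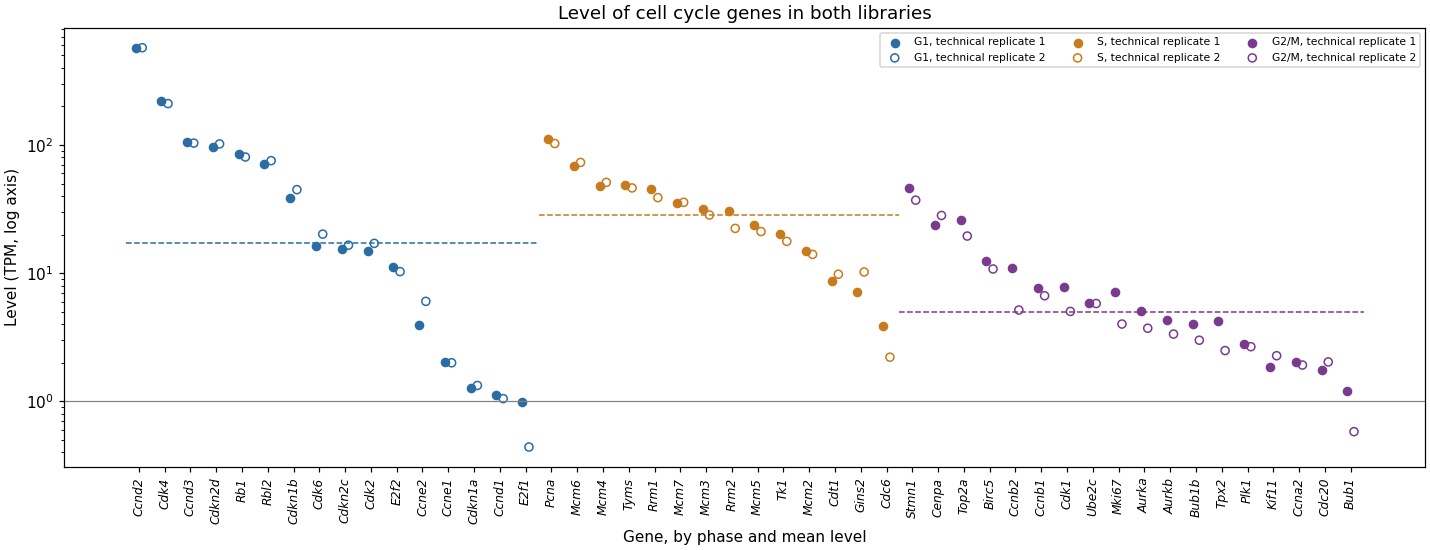
Level of each of the 48 genes in TPM on a log axis, by phase and mean level. Filled points are technical replicate 1, open points technical replicate 2, dashed lines the median of each phase (17.1, 28.3 and 5.00 TPM) and the grey line the detection threshold of 1 TPM. Most S-phase genes lie above most G2/M genes, and the G1 genes spread over the widest range.

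The libraries were then compared gene by gene. A two-sided exact binomial test on the counts, with Benjamini-Hochberg adjustment at 0.05 over all genes tested, called 17 of the 48 genes (35.4%), beside 19.2% of 17334 genes tested. Of these, 12 were lower in technical replicate 2, beside 9.78% of all genes tested, and 5 were higher, beside 9.42%. The calls fell differently by phase. Of the G1 genes 1 was called lower and 4 higher, of the S-phase genes 3 lower and 1 higher, and of the G2/M genes 8 lower and none higher. The test compares libraries made from 1 sample, not conditions, and allows for the sampling of reads only. With a common dispersion fitted by edgeR (coefficient of variation 0.105), 1 of the 48, the B-type cyclin gene Ccnb2, was called, beside 1.8% of all genes. That dispersion was fitted over all genes on the same libraries that were compared, so it takes in differences between them. The fewer calls are therefore no independent check. The authors' credibility intervals of TPM did not overlap for 6 of the 48, beside 7.85% of all genes. The TPM itself lay inside its own interval for only 39 of the 48 in technical replicate 1 and 38 in technical replicate 2. The whole-number counts of a smaller gene table called 8, beside 6.62% of the genes tested there.

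**Figure D2:**
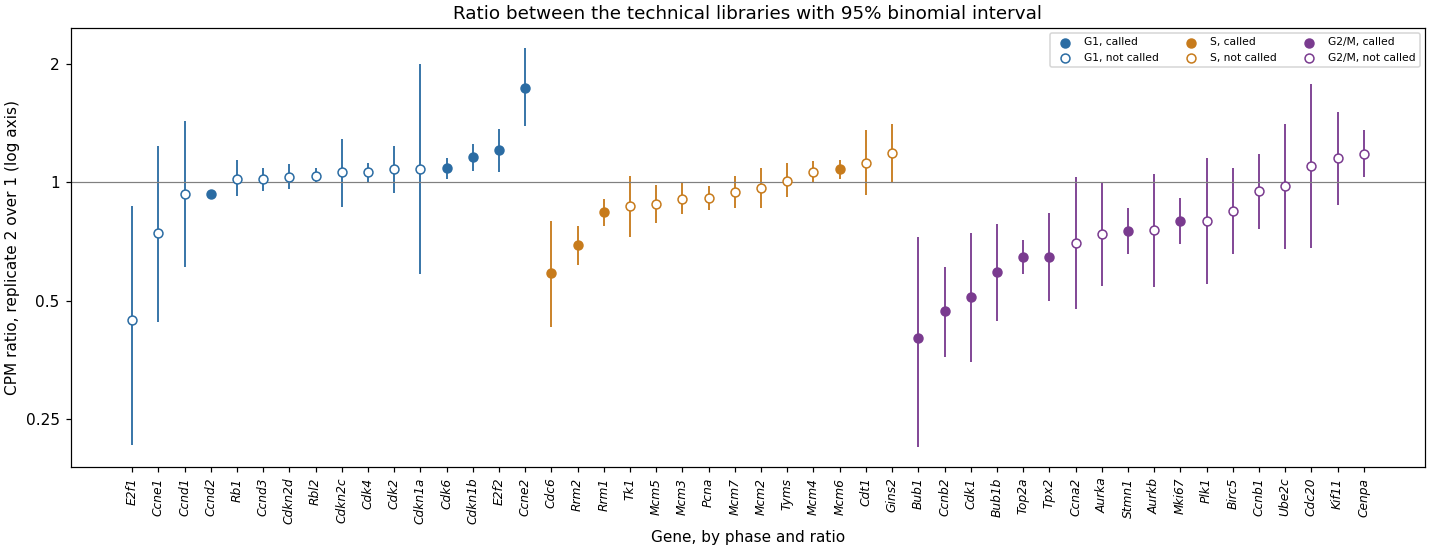
Ratio of CPM between the technical libraries (replicate 2 over 1, log axis) for each gene, by phase, with vertical lines for the 95% binomial interval and filled points for genes called by the binomial test. The called G2/M genes all lie below 1, and the called G1 genes other than Ccnd2 lie above it.

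Cyclin D2 was the dominant G1 cyclin transcript. Ccnd2 (chromosome 6, 127125162 to 127152193, minus strand, mm10), which encodes a D-type cyclin, stood at 570.1 and 575 TPM from 15918 and 13191 counts. That is 5.42 and 5.55 times the level of Ccnd3 (105 and 104 TPM from 1709 and 1539 counts), the D-type cyclin gene on chromosome 17. Ccnd1, the third D-type gene, was barely detected, at 1.13 and 1.05 TPM from 52.0 and 42.7 counts. The order Ccnd2, Ccnd3, Ccnd1 was the same in both libraries and far exceeded the spread between them. On counts, Ccnd2 was called lower in technical replicate 2 (ratio 0.936, 95% binomial interval 0.915 to 0.958, adjusted p = 1.94e-06 by the exact binomial test), whereas its TPM was slightly higher there. Its level rested on several transcripts. The short Ccnd2-206 (627 nt) held 30.2% and 32.2% of the TPM. The long Ccnd2-201 (6330 nt), with 30.2% and 27.5%, held 13427 and 10915 of the counts. Of the non-coding forms, Ccnd2-205 held 16.5% and 20.5% of the TPM and Ccnd2-207 held 14.6% and 11.5%. On protein-coding transcripts alone Ccnd2 stood at 384 and 380 TPM, which is 8.44 and 8.01 times the level of Ccnd3. Ccnd3 (ratio 1.02, 0.949 to 1.09) and Ccnd1 (0.934, 0.609 to 1.43) were not called, with adjusted p = 0.805 and 0.901 in the same exact test.

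The E-type cyclins were low. Ccne1 stood at 2.04 and 2.00 TPM. Ccne2 (chromosome 4, 11191351 to 11204779, plus strand) stood at 3.95 and 6.03 TPM from 127 and 196 counts, and was the only G1 gene called with a TPM ratio past 1.5-fold. It was higher in technical replicate 2 (count ratio 1.74, 1.39 to 2.20, adjusted p = 3.43e-05 by the exact binomial test), and its adjusted p was 0.108 with the edgeR dispersion. Among the kinases, Cdk4 (chromosome 10, 127063534 to 127067920) stood at 220 and 211 TPM from 2344 and 2190 counts, which is 13.6 and 10.4 times the level of Cdk6 (16.2 and 20.2 TPM). Cdk4 was not called (ratio 1.06, 0.996 to 1.12, adjusted p = 0.204 by the exact binomial test), and Cdk6 was called slightly higher in technical replicate 2 (ratio 1.09, 1.02 to 1.15, adjusted p = 0.0395). Cdk2, the partner of the E-type cyclins, stood at 14.9 and 17.1 TPM.

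By median, the inhibitors and pocket proteins formed the highest G1 subgroup, at 57.6 TPM. The cyclins and kinases had a median of 17.1 TPM and the E2F genes 5.72 TPM. By summed TPM the cyclins and kinases were higher, at 933.5 and 935.7 TPM, of which Ccnd2 held 570.1 and 575 TPM. The inhibitors and pocket proteins summed to 308.6 and 321.1 TPM. Their median also took in Rb1 at 84.5 and 80.7 TPM, of which only 7.20 and 7.94 TPM lay on protein-coding transcripts. The INK4 inhibitor gene Cdkn2d stood at 97.3 and 102 TPM, 6.26 and 6.17 times the level of its relative Cdkn2c (15.6 and 16.6 TPM). The CIP/KIP inhibitor gene Cdkn1b, whose product p27 restrains CDK2 in resting T cells, stood at 38.7 and 44.9 TPM. Cdkn1a, whose product p21 is induced by p53, stood at 1.27 and 1.33 TPM from 24.0 and 23.0 counts. Cdkn1b was thus 30.5 and 33.7 times as high as Cdkn1a. Cdkn1b was the only one of the 6 called, higher in technical replicate 2 (ratio 1.16, 1.07 to 1.25, adjusted p = 0.00208 by the exact binomial test), and Cdkn1a was not (1.08, 0.584 to 2.00, adjusted p = 0.966). The genes of the other inhibitors on a separate list, Cdkn1c, Cdkn2a and Cdkn2b, were not detected.

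The pocket protein genes looked alike by gene but not by transcript. Rb1, the retinoblastoma gene, stood at 84.5 and 80.7 TPM, and Rbl2, which encodes the pocket protein of the DREAM complex, at 71.2 and 75.5 TPM. For Rb1, however, 84.8% and 83.7% of the TPM lay on Rb1-206, a processed transcript of 408 nt. Its exons lie between 73238546 and 73239786 of chromosome 14, inside the exon of Lpar6, a lysophosphatidic acid receptor gene on the opposite strand, which itself stood at 39.3 and 41.2 TPM. Without a stated strand setting, reads of the Rb1-206 stretch cannot be assigned to either gene with certainty. By estimated counts Rb1-206 held 320 and 266, fewer than the protein-coding Rb1-201 (4656 nt) with 412 and 401. The protein-coding transcripts of Rb1 stood at 7.20 and 7.94 TPM, against 57.0 and 59.1 TPM for those of Rbl2, so that on coding transcripts Rb1 was 0.126 and 0.134 times the level of Rbl2. Neither gene was called between the libraries.

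**Figure D3:**
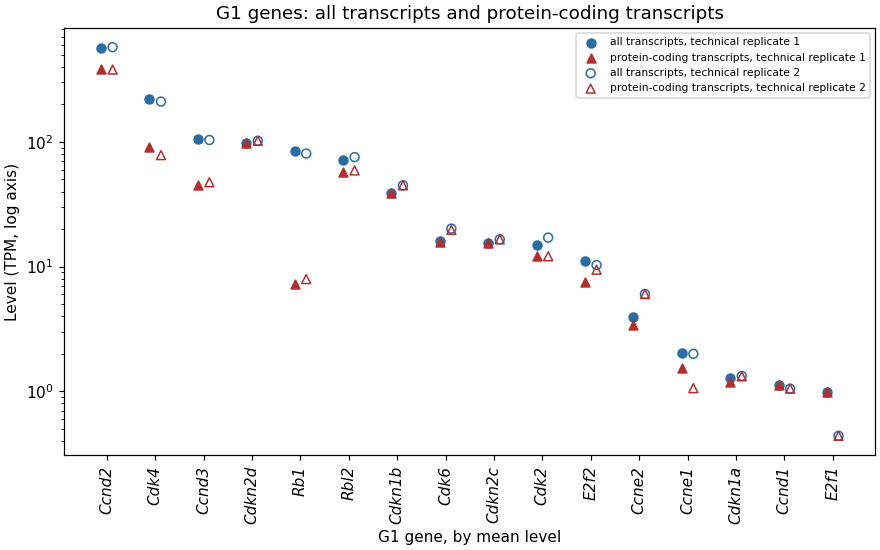
Level of the 16 G1 genes in TPM on a log axis, over all transcripts (circles) and over protein-coding transcripts alone (triangles), with filled symbols for technical replicate 1 and open symbols for technical replicate 2. Rb1 drops from 84.5 and 80.7 TPM to 7.20 and 7.94 TPM, Cdk4 and Ccnd3 drop less, and Cdkn2d, Cdkn2c and Ccnd1 barely move.

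By share of TPM, non-coding forms also led in 4 other genes. By estimated counts, which short transcripts raise less, the leading form was protein-coding for Rb1, Ccnd3 and Cdk4. It stayed non-coding for Tyms and Cenpa. The leading transcript by TPM was a retained intron form for Ccnd3 (30.4% and 27.9% of the TPM), Cdk4 (38.9% and 32.9%) and Tyms (31.0% and 33.3%). For Cenpa it was a form subject to nonsense-mediated decay (49.0% and 47.8%). On protein-coding transcripts Cdk4 stood at 90.7 and 78.4 TPM, 5.73 and 3.97 times the level of Cdk6. Ccnd3 stood at 45.5 and 47.5 TPM on such transcripts, Tyms at 10.3 and 10.7 TPM and Cenpa at 5.58 and 4.69 TPM. In 35 of the 48 genes, 1 transcript held at least 50% of the TPM in both libraries. The leading transcript differed between the libraries for Cdkn1a, E2f1, Mcm5 and Aurkb: Mcm5-203 held 53.2% of the Mcm5 TPM in technical replicate 1 and 0% in technical replicate 2, where Mcm5-205 held 93.1%. Count ratios and TPM ratios lay on different sides of 1 for 7 genes, namely Ccnd2, Ccnd3, Cdk4, Rb1, E2f2, Mcm7 and Tyms. Exons of 19 of the 48 genes overlap an exon of another gene, 3 of them on the same strand.

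Of the E2F genes E2f1 and E2f2, E2f2 was the higher, at 11.2 and 10.3 TPM. E2f3, on the separate list of other E2F genes, was also detected, at 2.15 and 1.60 TPM from 121 and 81 counts. E2f1 (chromosome 2, 154559407 to 154569892, minus strand) stood at 0.990 and 0.440 TPM from 33 and 13 counts and was the only G1 gene under the detection threshold. E2f1 was lower in technical replicate 2 without passing the exact binomial test (ratio 0.445, 0.215 to 0.869, adjusted p = 0.0583). E2f2 was called higher by counts (ratio 1.21, 1.06 to 1.37, adjusted p = 0.0274), while its TPM was lower there. The summed CPM of the 16 G1 genes was 2005 and 2004, a ratio of 0.999 (0.983 to 1.02), and Ccnd2 held 15918 of their 30842 counts in technical replicate 1. Without Ccnd2, a choice made after seeing the data, the sum was 970.4 and 1034 CPM, a ratio of 1.07 (1.04 to 1.09). By gene, 4 of the 16 had a lower CPM and 7 a lower TPM in technical replicate 2, and 1 was lower and 14 were higher by CPM of the smaller table. The summed CPM ratio of the 6 inhibitor and pocket protein genes was 1.06 (1.03 to 1.09).

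To set the levels beside promoter sequence, RefSeq promoters (GRCm38.p6, from 250 bases before to 50 bases after the start) were searched on both strands. The words were E2F-type (any of TTCCCGC and TTCGCGC and TTGCCGC and TTGGCGC), CHR (TTTGAA and TTCGAA) and the NF-Y box (CCAAT, bound by the factor NF-Y). E2F-type words on opposite strands can overlap each other, and an E2F-type word ending in CCAA on the strand of the gene overlaps an NF-Y box where a T follows. Promoters were matched for 38 of the 48 genes, and those of Ccnd1, Ccnd2, Ccne2, Rb1, Gins2, Mcm4, Aurkb, Ccna2, Stmn1 and Tpx2 were not. E2F-type words lay in 8 of 12 matched S-phase genes (66.7%), 3 of 12 G1 genes (25%) and 3 of 14 G2/M genes (21.4%), beside 10.9% of 27025 genes with a promoter. CHR words lay in 12 of 14 G2/M genes (85.7%), 2 of 12 S-phase genes and 2 of 12 G1 genes, beside 21.7% of all genes. A match is a description of the letters and not a binding site.

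**Figure D4:**
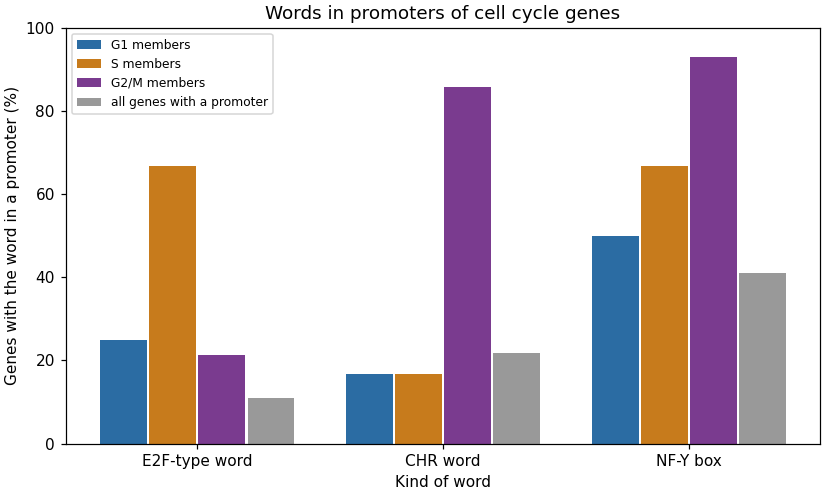
Share of genes, in percent, with each kind of word in a promoter, for the G1, S and G2/M genes with a promoter (12, 12 and 14 genes) and for all 27025 genes with a promoter. E2F-type words are most frequent in S-phase genes (66.7%) and CHR words in G2/M genes (85.7%).

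By TPM, the S-phase genes were led by Pcna (chromosome 2, 132249162 to 132253314, minus strand), at 111 and 103 TPM from 1761 and 1424 counts. Its product is the sliding clamp of DNA polymerases. In the smaller gene table Pcna held 278 and 224 counts, beside 1498 and 1467 for Mcm6. Pcna was not called (ratio 0.914, 0.852 to 0.980, adjusted p = 0.0583 by the exact binomial test). The 6 genes of the MCM2-7 helicase, whose proteins assemble as a ring of equal parts, did not have equal transcript levels. Mcm6 stood at 69.2 and 73.2 TPM (2449 and 2342 counts), Mcm4 at 48.2 and 51.2 TPM (2086 and 1953 counts) and Mcm7 at 35.5 and 35.8 TPM. Mcm3 stood at 31.7 and 28.5 TPM, Mcm5 at 23.9 and 21.1 TPM and Mcm2 at 14.9 and 14.0 TPM. The order of these 6 was the same in both libraries, with Mcm6 at 4.66 and 5.22 times the level of Mcm2. Mcm6 was called slightly higher in technical replicate 2 (ratio 1.08, 1.02 to 1.14, adjusted p = 0.0421), and Mcm4 was not called (1.06, 0.994 to 1.13, adjusted p = 0.214), both by the exact binomial test.

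The lowest 3 S-phase genes were Cdt1, Gins2 and Cdc6. Cdt1, which loads the helicase with CDC6, stood at 8.69 and 9.82 TPM from 220 and 219 counts, and was not called (ratio 1.12, 0.929 to 1.36, adjusted p = 0.449 by the exact binomial test). Gins2, a subunit of the active helicase, stood at 7.14 and 10.2 TPM from 270 and 284 counts, and was not called (1.19, 1.00 to 1.41, adjusted p = 0.153). Cdc6 (chromosome 11, 98907801 to 98923940, plus strand), a licensing factor, stood at 3.87 and 2.21 TPM from 127 and 66.0 counts. Cdc6 was called lower in technical replicate 2 (ratio 0.587, 0.429 to 0.797, adjusted p = 0.00453) and its credibility intervals did not overlap.

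Both ribonucleotide reductase genes, whose products make deoxyribonucleotides, were called lower in technical replicate 2. Rrm1 stood at 45.7 and 38.9 TPM (ratio 0.840, 0.776 to 0.909, adjusted p = 2.95e-04 by the exact binomial test) and Rrm2, the subunit regulated by the cell cycle, at 30.7 and 22.4 TPM (0.691, 0.615 to 0.775, adjusted p = 1.57e-08). The thymidylate genes Tyms (49.1 and 46.3 TPM) and Tk1 (20.3 and 17.7 TPM) were not called. Over the 14 S-phase genes the summed CPM was 891 and 854, a ratio of 0.958 (0.934 to 0.982). The median log2 ratio of TPM + 1 was -0.10, beside -0.001 over all genes tested.

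The called S-phase genes Cdc6, Rrm1, Rrm2 and Mcm6 each had an E2F-type word, printed 5′ to 3′ on the strand of the gene with the word in capitals, and these are shown because most S-phase promoters held this kind of word.
Cdc6: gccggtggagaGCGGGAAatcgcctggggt
Rrm1: aggagaactcgTTCCCGCcaggtccgcttt
Rrm2: caccaacctcaGCGGCAAcgcccgcccggc
Mcm6: attggacgggtTTGGCGCgaagtagctcag
These lie at chr11:98908002-98908031 (plus strand), chr7:102441617-102441646 (plus), chr12:24708008-24708037 (plus) and chr1:128359733-128359762 (minus). In Cdc6 and Rrm2 the word is read on the opposite strand. Measured from the start of transcription, the first printed base of the word lies at -138 in Cdc6, -67 in Rrm1, -235 in Rrm2 and -46 in Mcm6. Mcm6 held further E2F-type words beginning at -109, -106, -43 and 25, so the one in capitals is neither its only one nor the nearest to the start. Mcm3, Mcm5, Mcm7 and Cdt1 also held such words, whereas Pcna, Mcm2, Tyms and Tk1 had no match in this window. By TPM, Cdc6, with the word, was the lowest S-phase transcript, and Pcna, without it, the highest. Whether the word goes with the level of a transcript was not tested.

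The G2/M genes were low, and 15 of 18 had a lower TPM in technical replicate 2. The highest was Stmn1 (chromosome 4, 134468320 to 134473843, plus strand), whose product destabilises microtubules, at 46.4 and 37.2 TPM from 557 and 371 counts. It was called lower in technical replicate 2 (ratio 0.753, 0.658 to 0.860, adjusted p = 4.89e-04 by the exact binomial test). In the smaller gene table Stmn1 held only 29 and 18 counts, beside 791 and 465 for Top2a. Stmn1 was not called there (adjusted p = 0.572 by the same test). Cenpa, the centromeric histone gene, followed at 23.8 and 28.2 TPM from 389 and 407 counts. It was higher in technical replicate 2 without being called (ratio 1.18, 1.03 to 1.36, adjusted p = 0.0831). On protein-coding transcripts, however, Cenpa stood at 5.58 and 4.69 TPM, lower in technical replicate 2. That was below Top2a, at 14.8 and 9.33 TPM on such transcripts. Top2a, the topoisomerase gene, stood at 26.0 and 19.5 TPM from 1078 and 616 counts, and was called lower (0.646, 0.584 to 0.714, adjusted p = 6.25e-16).

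The mitotic kinase CDK1 and its cyclins were present at low level. Ccnb2 (chromosome 9, 70407692 to 70421547, minus strand), which has 1 annotated transcript, stood at 11.0 and 5.16 TPM from 202 and 84.0 counts. It was called lower in technical replicate 2 by every method named above (ratio 0.470, 0.360 to 0.609, adjusted p = 1.77e-07 by the exact binomial test and 0.0147 with the edgeR dispersion). The other B-type cyclin gene, Ccnb1, stood at 7.62 and 6.67 TPM and was not called (0.949, 0.760 to 1.18, adjusted p = 0.833), though a difference between both ratios was not tested. Cdk1 (chromosome 10, 69335146 to 69352938, minus strand) stood at 7.87 and 5.03 TPM from 95 and 43 counts and was called lower (0.512, 0.348 to 0.741, adjusted p = 0.00296). Ccna2, the cyclin of S and G2 phases, stood at 2.04 and 1.92 TPM from 74.0 and 46.5 counts and was not called (0.702, 0.475 to 1.03, adjusted p = 0.199).

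The lowest G2/M gene was Bub1 (chromosome 2, 127801122 to 127831865, minus strand), a spindle checkpoint kinase gene, at 1.21 and 0.580 TPM from 45.0 and 16.0 counts, and the only G2/M gene under the detection threshold. It was called lower in technical replicate 2 (ratio 0.402, 0.212 to 0.725, adjusted p = 0.0105 by the exact binomial test), as was its checkpoint partner Bub1b at 4.03 and 3.00 TPM (0.592, 0.443 to 0.785, adjusted p = 0.00243). Tpx2 (chromosome 2, 152847964 to 152895321, plus strand), which activates Aurora A on the spindle, stood at 4.26 and 2.49 TPM from 173 and 99.0 counts and was called lower (0.647, 0.5 to 0.833, adjusted p = 0.00560). Mki67, the gene of the proliferation antigen Ki-67, stood at 7.19 and 4.01 TPM from 521 and 367 counts and was called lower (0.796, 0.695 to 0.912, adjusted p = 0.00834). Its TPM ratio of 0.558 was further from 1 than its count ratio, and its short transcript Mki67-202 (575 nt) held 44.0% and 17.7% of its TPM.

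The remaining G2/M genes were not called. The survivin gene Birc5 stood at 12.6 and 10.8 TPM, the ubiquitin carrier gene Ube2c of the anaphase-promoting complex at 5.87 and 5.80 TPM, and the Aurora kinase genes Aurka and Aurkb at 5.10 and 3.72 and at 4.31 and 3.35 TPM. The mitotic kinase gene Plk1 stood at 2.80 and 2.67 TPM, and the spindle motor gene Kif11 at 1.87 and 2.27 TPM. Cdc20, an activator of the anaphase-promoting complex, stood at 1.75 and 2.03 TPM from 38.0 and 36.9 counts (ratio 1.10, 0.681 to 1.78, adjusted p = 0.882 by the exact binomial test). A level of Cdc20 1.5-fold higher in technical replicate 2 lies within this interval. Whether the test would call a difference of that size at this depth was not measured.

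Summed over the 18 genes, G2/M transcripts came to 267 and 205 CPM, a ratio of 0.767 (0.730 to 0.805, counting error only). The median log2 ratio of TPM + 1 was -0.30, beside 0.03 for the G1 genes. The summed level of the B cell and plasma cell markers was 116 and 38.0 TPM, and most of it lay on 2 genes. These were Igkc at 102 and 34.3 TPM and Jchain at 10.2 and 1.22 TPM, both called lower in technical replicate 2. By TPM, 4 of the 6 markers were lower in technical replicate 2, and no other marker was called. On the same list Ms4a1, Cd79a and Pax5 were not detected, with levels from 0.230 to 1.66 TPM. Whether B cells or plasma cells had a part in the G2/M difference was not tested.

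Of the G2/M genes called lower, 6 had a promoter in the table, and each held a CHR word. They are printed 5′ to 3′ on the strand of the gene with the word nearest to the start in capitals, because this word was shared by most of the late genes.
Ccnb2: agcggcgcggtaTTTGAAtcgcggaccggg
Cdk1: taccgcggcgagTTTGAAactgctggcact
Top2a: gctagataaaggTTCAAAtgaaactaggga
Mki67: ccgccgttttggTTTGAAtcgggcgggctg
Bub1: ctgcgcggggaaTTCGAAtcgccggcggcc
Bub1b: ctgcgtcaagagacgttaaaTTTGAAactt
These lie at chr9:70421533-70421562 (minus strand), chr10:69352910-69352939 (minus), chr11:99024195-99024224 (minus), chr7:135716460-135716489 (minus), chr2:127831828-127831857 (minus) and chr2:118598231-118598260 (plus). In Top2a the word is read on the opposite strand, and TTCGAA in Bub1 reads the same on both strands. The word begins at -15 in Cdk1, -23 in Top2a and -98 in Mki67, and after the start at 5 in Ccnb2, 15 in Bub1 and 41 in Bub1b. Words beginning within 50 bases of the start, a limit chosen after the positions were seen, lay in 11 of 14 G2/M genes (78.6%), 1 of 12 G1 genes and none of 12 S-phase genes, beside 6.12% of all genes. A CHR word together with an NF-Y box lay in 12 of 14 G2/M genes (85.7%), beside 8.61% of all genes. Ccnb1, which was not called, had an NF-Y box but no CHR word in this window, and Birc5, also not called, had neither. The word did not separate called from uncalled genes: Ube2c, Aurka, Cdc20, Cenpa, Plk1 and Kif11 held it too and were not called.

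Genes on 4 further lists of the same pathway gave the setting. Of 31 other replication genes all were detected, with a median of 15.7 TPM, and 6 (19.4%) were called lower and none higher, beside 19.2% of all genes called in either direction and 9.78% called lower. The highest were the single-strand binding gene Rpa1 (149 and 143 TPM) and the clamp loader gene Rfc2 (107 and 104 TPM). The level of Rfc2 lay on non-coding forms, led by a retained intron form, and its protein-coding transcripts stood at 1.67 and 1.63 TPM. The checkpoint kinase gene Chek1 was the called gene past 2-fold, at 4.70 and 2.20 TPM (count ratio 0.446, 0.277 to 0.699, adjusted p = 0.00250 by the exact binomial test and 0.0929 with the edgeR dispersion). Its protein-coding transcripts stood at 1.29 and 0.270 TPM. Of 35 other mitosis genes 31 were detected, with a median of 5.15 TPM, and 6 were called lower and 3 higher (25.7% in all, beside the 19.2% of all genes). The highest were the condensin gene Smc4 (317 and 349 TPM) and the checkpoint gene Bub3 (135 and 126 TPM). The leading form of Smc4 is subject to nonsense-mediated decay, and on protein-coding transcripts Smc4 stood at 55.0 and 88.7 TPM, below Bub3 at 118 and 113 TPM.

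Of the mitosis list, Cdc25c and Wee1 were called past 2-fold. Cdc25c, a phosphatase gene that activates CDK1, stood at 1.74 and 0.430 TPM from 40.4 and 5.00 counts (ratio 0.141, 0.0435 to 0.358, adjusted p = 2.4e-05 by the exact binomial test and 0.00172 with the edgeR dispersion). Wee1, the kinase gene that inhibits it, stood at 1.15 and 2.59 TPM from 48.0 and 96.0 counts (2.26, 1.58 to 3.27, adjusted p = 7.7e-05 and 0.0352). Cdc25c was under the detection threshold in technical replicate 2, and its protein-coding transcripts were listed at 0 TPM in technical replicate 1 and stood at 0.200 TPM in technical replicate 2, so its lower level came from non-coding forms. Neither was called in the smaller table (adjusted p = 0.0668 and 0.0811 by the exact binomial test).

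The list of other G1 regulators held 15 measured genes of 16 (Cdk3 had no match), of which 11 were detected, with a median of 17.3 TPM. The genes of the CDK-activating kinase, Ccnh (103 and 108 TPM) and Cdk7 (61.5 and 67.3 TPM), were highest, and 4 of 14 tested genes (28.6%) were called higher and none lower, beside 9.42% of all genes called higher, among them the CDK phosphatase gene Cdc25a (4.64 and 6.49 TPM). Of these the gene called past 2-fold was Cdkn2b (0.420 and 1.29 TPM from 7 and 19 counts, ratio 3.07, 1.23 to 8.63, adjusted p = 0.0499 by the exact binomial test and 0.28 with the edgeR dispersion). Of 16 other E2F, DREAM and Myb-MuvB genes 12 were detected and none was called. Rbbp4 (262 and 244 TPM) and Lin37 (83.1 and 83.2 TPM), which encode subunits of the MuvB core, were highest. Of the Rbbp4 level, 74.7 and 69.3 TPM lay on protein-coding transcripts. Foxm1 was detected, at 2.02 and 1.18 TPM from 71.8 and 40.0 counts, whereas E2f7, E2f8, Mybl1 and Mybl2 were not. Mybl2, which encodes B-MYB, stood at 0.600 and 1.76 TPM, and so passed the threshold in technical replicate 2 only.

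The smaller gene table, of whole-number counts, treated the groups unequally. Per 100 estimated counts it held a median of 28.1 counts for G1 genes, 54.9 for S-phase genes and 67.3 for G2/M genes in technical replicate 1, beside 39.3 over 9594 matched genes with at least 50 counts. The share of each gene's reads expected in coding sequence, from its transcripts and their levels, had medians of 29.9%, 63.0% and 63.1% in these groups. Across the 48 genes the 2 quantities had a Spearman rho of 0.858 and 0.772 in the libraries, beside 0.550 and 0.558 over the matched genes, as a description over genes that share their library and annotation. Ccnd1 had 0 counts in the smaller table in both libraries, and Cdk6, whose leading transcript is 11525 nt long, had 23.0 and 41.0 counts beside 2216 and 2129 estimated counts. Relative to all matched counts, Ccnd1, Ccnd2, Cdk6, Ccnb1 and Stmn1 were over 2-fold lower in the smaller table in both libraries, and 19 genes were over 2-fold higher, 11 of them G2/M genes. All 8 genes that the smaller table called (Rrm1, Rrm2, Cdk1, Ccnb2, Top2a, Bub1, Bub1b and Tpx2) had the direction of the main test.

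**Figure D5:**
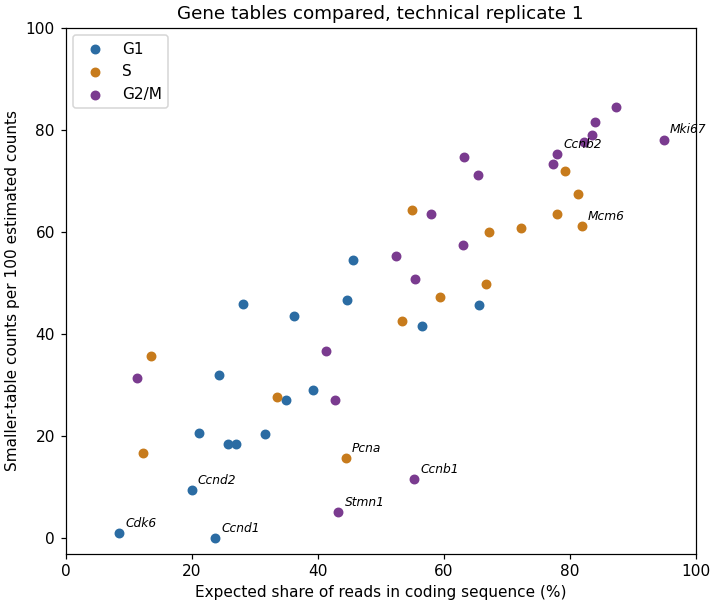
Counts of the smaller gene table per 100 estimated counts of the larger table, against the share of reads expected in coding sequence (percent), for the 48 genes in technical replicate 1, coloured by phase. G1 genes with a low coding share, such as Cdk6 and Ccnd2, lie at the lower left, and G2/M genes such as Mki67 at the upper right, while Ccnb1, Stmn1 and Pcna lie below other genes of like coding share.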

How the data were processed

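For each technical library the authors deposited a larger gene table with estimated counts and TPM (mm10, GENCODE M21 genes), a transcript table with the percent of a gene's TPM on each transcript, and a smaller gene table of whole-number counts, per the file headers and the text with each library. Credibility bounds of TPM, recorded as signal values, were also deposited by the authors; their level and the aligner, quantifier, strand setting and versions are not given in the sources used here. Reads were divided between overlapping genes and copies by estimation, which makes such genes uncertain. Entries without a gene name (0.174% and 0.158% of counts) were left out.

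Estimated counts were rounded and compared gene by gene with an exact two-sided binomial test where both libraries summed to 10 or more counts, with TMM sizes (edgeR 4.0.16, R 4.3.3) and Benjamini-Hochberg adjustment. No quasi-likelihood test was possible, since 2 libraries leave no residual degree of freedom. P-values of this test, intervals and floors cover counting error only, and the edgeR dispersion adds the spread between technical libraries of 1 sample. On simulated read sampling of technical replicate 2 against 1 (17429 genes), the binomial test recovered 79% of 2-fold and 98% of 4-fold changes with 11 false calls. The changes were set only in genes with at least 50 summed counts, so recovery at lower counts was not measured. No spread beyond read sampling was simulated, so the number of false calls does not carry over to these libraries. Log2 ratios used TPM + 1. Median levels, leading transcripts and promoter words are descriptions. The alternatives were DESeq2 1.42.0 size factors, total counts, other count minimums, the smaller table, an edgeR common dispersion, and other pseudocounts, thresholds and transcript sets. Tables were joined with pandas 2.3.3 and intervals and correlations made with scipy 1.17.1.

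The genes, lists and tests were chosen with earlier results of these data known. Full values were given for called genes with a TPM ratio past 1.5-fold, the highest and lowest 3 of each phase, and genes under 1 TPM in a library; of the other lists, for the highest 2 and the genes called past 2-fold. Protein sequences were not analysed here. Single values of some marker genes are not reported here.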

Additional observations from a re-analysis of the deposited data

How the results depend on the processing

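No paired analysis was possible because the labels gave 1 group. The phase medians (S, G1, G2/M) were 97.5, 36.5 and 14.0 TPM-like units with the smaller table per gene length. On protein-coding transcripts alone, an alternative chosen after seeing the data like the credibility intervals and the set without E2f1 and E2f2, the G1 median was 14.1 and the S-phase median 23.0 TPM. Without E2f1 and E2f2 the G1 median was 29.98 TPM, above the S-phase median. That order held in technical replicate 2 and not in technical replicate 1. Without Ccnd2, also chosen after seeing the data, the summed CPM ratio of the G1 genes was 1.07 in place of 0.999. At a threshold of 5 TPM 8 G2/M genes were detected. Calls of lower G1 genes went from 1 to 0 with the smaller table, the edgeR dispersion and the credibility intervals. Calls of higher G1 genes went from 4 to 0, 0 and 2 under the same alternatives. Calls of lower S-phase genes went from 3 to 0 with the edgeR dispersion, and the call of Mcm6 as higher was lost (0 calls) with DESeq2 size factors, without a count minimum, and under those alternatives. Calls of lower G2/M genes went from 8 to 1 with the edgeR dispersion and 2 with the credibility intervals. The median log2 ratio of G1 genes was 0.065 with CPM and 0.076 with CPM of the smaller table, that of S-phase genes -0.17 with the latter, and that of G2/M genes -0.49 with the latter and -0.16 with a pseudocount of 5 TPM. With E2F-type words limited to TTCCCGC and TTGGCGC, each preceded by another T, 0 G2/M genes held one. Ccnd2 reversed in the smaller table, with a log2 ratio of 0.074 (adjusted p = 0.473 by the exact binomial test). Of the 17 calls, 15 held with DESeq2 size factors, 15 without a count minimum, 17 with total counts, 17 with a minimum of 50 counts and 8 in the smaller table. The cause of these differences was not tested. Genes with few counts, such as Bub1, E2f1 and Cdkn1a, are limited by depth, and no value here covers variation between animals.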
